A study of Rattus norvegicus with 12 samples.

Results

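Primary rat cortical neurons exposed to isoflurane at 3 MAC were set against the same kind of culture exposed to halothane at 1 MAC, with 3 arrays in each group out of the 12 arrays of the series. Isoflurane, a halogenated ether, and halothane, a halogenated alkane, are volatile general anaesthetics, and MAC, the minimum alveolar concentration, is the usual unit of their potency. The doses came to about 4% isoflurane and about 1% halothane. No isoflurane group at 1 MAC was analysed here, so agent and dose cannot be told apart in this comparison. The remaining arrays, 3 of halothane at 3 MAC (about 3%) and 3 of untreated control, entered the statistical model and are given beside single genes.

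All plates came from fetal brains of 3 pregnant rats at pregnancy day 17. Cells of each mother were kept apart and plated on 4 dishes of 100 mm. On day 16 in vitro the treated plates spent 6 h with the gas in a closed chamber and 6 h in recovery before harvest, while control plates stood in air outside the chamber. The labels do not name the rat behind each array. With 3 rats of 4 dishes each, all 4 groups of 3 arrays could hold 1 plate of every rat. In that case the main model below leaves the pairing by rat out. The 4 groups could not each come from 1 rat, since no rat had dishes for 2 groups of 3. Some groups could still do so, and the spread between their arrays would be a spread between plates of 1 animal. The isoflurane and halothane 1 MAC plates could then also come from different mothers. Animal could then not be told apart from agent and dose in any difference below. Each array carried a sample in Cy5 and one pool of control RNA in Cy3. A value below is a log2 ratio to that pool, read as sample over pool, which is likely and not stated, as is the log10 base of the deposited values. If the pool was made from these controls, their mean linear ratio should lie near 1, and over 159 variable spots its median was 1.065 for sample over pool and 1.544 for the opposite reading. Were the ratio inverted, every higher would become lower, and a smaller base would shrink every difference.

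Halothane 1 MAC replicate 1 stood apart from the rest. Its median was 0.28 on the log2 scale, against −0.0051 to 0.0048 on the other 11 arrays, and it correlated with no array above r = 0.18 over 8933 genes. The 3 isoflurane arrays correlated with each other at 0.64 to 0.74, and halothane 1 MAC replicates 2 and 3 at 0.76. Genes, the points of these correlations, are not independent replicates. Differences, their tests and list medians are therefore given with all 12 arrays (the 12-array fit) and without that array (the 11-array fit). The controls did not group by label either. Control 2 had r of 0.745 to 0.773 with the halothane 3 MAC arrays, against 0.0684 and −0.0473 with controls 1 and 3. Control 1 correlated at 0.61 with halothane 1 MAC replicates 2 and 3, and control 3 at 0.469 to 0.625 with isoflurane. Controls 1 and 3 correlated at 0.42 with each other. What lies behind this pattern was not tested. No control is an array of the pair compared, but the spread of the controls enters the pooled variance of both fits. A difference is isoflurane minus halothane 1 MAC, in log2 units.

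Volatile anaesthetics act on ion channels and transmitter receptors of neurons, and they also disturb membranes and calcium stores. Proteins that fold poorly in the endoplasmic reticulum switch on chaperone genes through the unfolded protein response. Cells short of amino acids or under oxidative load switch on further gene sets through the transcription factors ATF4 and NRF2.

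In the 12-array fit 0 of 16546 features (9210 genes and 7336 probes without a gene name) passed the threshold between isoflurane 3 MAC and halothane 1 MAC, by limma with Benjamini-Hochberg adjustment at 0.05. The smallest adjusted p was 0.0778. Before adjustment 2959 features had p under 0.05, beside 827 by chance alone. In the 11-array fit 74 features passed, 51 higher (0.308% of those tested) and 23 lower (0.139%) in isoflurane, among them 34 named genes, 22 higher and 12 lower. All 74 had the same direction in the 12-array fit. For 52 of the 74, and for 24 of the 34 named genes, the isoflurane values also lay apart from all 3 halothane 1 MAC values, replicate 1 included. A fit of the 5 arrays alone, isoflurane and halothane 1 MAC replicates 2 and 3, called 199 features higher (1.21% of 16383) and 115 lower (0.702%), 1.92% in either direction, of which 58 were among the 74. Calls of this fit named within the lists below are calls of single genes, to be read beside these shares. With halothane 1 MAC replicate 1 kept, a fit of the same groups alone called 3 features, 0 higher and 3 lower. Of these, 0 were among the 74. No call of higher in the fit of 5 arrays thus held with that array. No list was tested as a set. Without control 2, an alternative chosen after the data were seen, the counts were 0 with halothane 1 MAC replicate 1 and 524 without it. With the replicate number as a block 0 features passed in either fit, so all 74 calls were lost. Of the 74, 1 feature (Pde11a) was measured on only 1 of halothane 1 MAC replicates 2 and 3.

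The genes higher in isoflurane were of mixed function. Cybrd1, an iron reductase of the plasma membrane, read 1.24, 1.70 and 1.01 on the isoflurane arrays, against 0.00, −0.54 and −0.71 on halothane 1 MAC arrays 1 to 3. Every isoflurane value lay above every halothane value. The difference was 1.94 ± 0.28 (SE, 3 arrays against 2; 3.84-fold; adjusted p = 0.0313) in the 11-array fit and 1.73 ± 0.28 (adjusted p = 0.0798) in the 12-array fit.

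Pygl, the liver-type glycogen phosphorylase, read 1.19, 1.41 and 1.22 with isoflurane, against 0.73, −0.39 and −0.36 with halothane 1 MAC. Its difference was 1.64 ± 0.18 in the 11-array fit (3.13-fold; adjusted p = 0.0145) and 1.28 ± 0.28 in the 12-array fit (adjusted p = 0.097). Pmepa1, a membrane protein induced by TGF-beta signalling that dampens that pathway, read 1.33, 1.22 and 1.15 with isoflurane, against 0.13, −0.03 and 0.01 with halothane 1 MAC. The halothane values of Pmepa1 lay close to the pool, and replicate 1 fell in with the others. Pmepa1 gave 1.25 ± 0.18 (adjusted p = 0.0313) without that array and 1.20 ± 0.18 (adjusted p = 0.0778) with it.

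Eef2, the translation elongation factor that moves the ribosome along the message, read 0.45, 0.46 and 0.65 with isoflurane, against −0.40, −0.69 and −0.49 with halothane 1 MAC. The difference of Eef2 was 1.11 ± 0.15 (2.16-fold; adjusted p = 0.0234) in the 11-array fit and 1.04 ± 0.16 (adjusted p = 0.0778) in the 12-array fit. Creb1, a transcription factor driven by cAMP and calcium, read 0.34, 0.43 and 0.34, against −0.29, −0.79 and −0.82 (1.17, adjusted p = 0.0313, in the 11-array fit and 1.00, adjusted p = 0.0968, in the 12-array fit). Fat3, a giant cadherin that shapes dendrites, read 1.49, 1.38 and 1.25, against −0.83, 0.26 and 0.42 (1.03, adjusted p = 0.047, in the 11-array fit and 1.42, adjusted p = 0.097, in the 12-array fit). In all of these the groups did not overlap.

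Nefl, the light neurofilament subunit of axons, read 0.65, 0.78 and 0.65 with isoflurane, against −0.64, −0.22 and −0.11 with halothane 1 MAC. It gave 0.87 ± 0.14 (adjusted p = 0.035) in the 11-array fit and 1.02 ± 0.17 (adjusted p = 0.0798) in the 12-array fit. Hook3, an adaptor that ties cargo to the dynein motor, differed by 0.85 in the 11-array fit (adjusted p = 0.034) and by 0.86 in the 12-array fit (adjusted p = 0.0798), and its 2 probes gave 1.05 and 0.64. Birc6, a giant ubiquitin ligase that blocks apoptosis, gave 0.83 (12-array 0.80) from those of its 5 probes with values on all 12 arrays. The 5 probes ranged over 0.30 to 1.49 without halothane 1 MAC replicate 1. Ppp3cb, a catalytic subunit of calcineurin, gave 0.69 (12-array 0.80). The isoflurane values of these genes lay above all 3 halothane 1 MAC values, and so did those of Nup153, a nuclear pore protein (0.84, 12-array 1.31), and Lrrc58, a leucine-rich repeat protein (0.54, 12-array 0.55).

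Replicate 1 lay among or above the isoflurane values for other genes. Ripk3, a kinase of necroptosis, read 2.31, 1.38 and 2.07 with isoflurane, against 1.66, 0.35 and 0.17 with halothane 1 MAC, with differences of 1.66 (adjusted p = 0.0313) in the 11-array fit and 1.19 (adjusted p = 0.158) in the 12-array fit. Itga6, a laminin receptor subunit, read 0.99, 0.88 and 0.88 with isoflurane, against 2.01, −0.43 and −0.07 with halothane 1 MAC. Without the value of 2.01 its difference was 1.17 ± 0.13 (adjusted p = 0.0145), and with it 0.41 ± 0.47 (adjusted p = 0.618). Dnajc5, the cysteine string protein that chaperones synaptic vesicle proteins, read 0.95, 1.36 and 0.92, against 1.23, −0.84 and −0.14. Klhl20, a ubiquitin ligase adaptor, and Trak2, an adaptor for the transport of mitochondria along axons, likewise overlapped replicate 1. The 11-array differences of Dnajc5, Klhl20 and Trak2 were 1.57, 1.11 and 0.86, and their 12-array differences 0.99, 0.68 and 0.37. Mllt3, a reader of histone acylation, gave 0.80 in the 11-array fit and 0.54 in the 12-array fit and also overlapped replicate 1.

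Among genes lower in isoflurane, Lingo2, a neuronal transmembrane protein with leucine-rich repeats, read −1.58, −1.55 and −1.47, against −0.81, −0.78 and −0.79 with halothane 1 MAC. The spread within either group was small, and the groups did not overlap. The difference was −0.75 ± 0.10 (1.68-fold lower; adjusted p = 0.0234) in the 11-array fit and −0.74 ± 0.12 (adjusted p = 0.0798) in the 12-array fit. Beside it Lingo2 read −0.11, −0.18 and −0.31 with halothane 3 MAC and −0.05, 0.09 and 0.05 in controls.

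Chrna4, a subunit of the main nicotinic acetylcholine receptor of brain, read −0.85, −0.96 and −0.64 with isoflurane, against 0.57, 0.05 and 0.11 with halothane 1 MAC. It differed by −0.89 ± 0.14 (adjusted p = 0.034) in the 11-array fit and by −1.06 ± 0.18 (adjusted p = 0.0798) in the 12-array fit. Tspan1, a tetraspanin, read −0.49, −0.67 and −0.67, against 0.14, 0.57 and 0.51. Its difference was −1.15 ± 0.16 (2.22-fold lower; adjusted p = 0.0234) in the 11-array fit and −1.02, adjusted p = 0.0819, in the 12-array fit.

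Lamtor3, a scaffold of the lysosomal complex that recruits mTORC1, read −0.74, −0.93 and −0.58 with isoflurane, against 0.31, 0.28 and 0.14 with halothane 1 MAC (−0.96, adjusted p = 0.0339, in the 11-array fit and −0.998, adjusted p = 0.0778, in the 12-array fit). Ssbp2, a single-stranded DNA binding protein, read −0.32, −0.31 and −0.44, against 0.43 on each halothane 1 MAC array (−0.78, adjusted p = 0.034, in the 11-array fit and −0.78, adjusted p = 0.0798, in the 12-array fit). Both were apart on all 6 arrays. Itga8, an integrin subunit that binds nephronectin, Fmod, the matrix proteoglycan fibromodulin, and Pde6d, a carrier of prenylated proteins, gave 11-array differences of −0.89, −0.68 and −0.61 and 12-array differences of −0.70, −1.21 and −0.58, and were also apart on all 6. Dbndd1, a dysbindin domain protein, gave −0.94 (12-array −0.88) and Stk24, a kinase of the germinal centre kinase family, −0.57 (12-array −0.39), again with no overlap. For Stk24 the margin to replicate 1 was slight. Its isoflurane values were −0.092, −0.133 and −0.161, against −0.082, 0.379 and 0.495 with halothane 1 MAC (adjusted p = 0.237 in the 12-array fit).

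Pde11a, a phosphodiesterase of cAMP and cGMP, read −0.71 and −1.15 on 2 isoflurane arrays, against 0.15 and 1.71 on halothane 1 MAC replicates 1 and 2. Its 11-array difference of −2.64 has a single halothane 1 MAC array behind it, so that call has no replicate check on that side, and the 12-array difference was −1.86 (adjusted p = 0.153). Zfp954, a zinc finger gene, differed by −0.93 in the 11-array fit and by −0.24 in the 12-array fit. Its isoflurane values were −0.28, −0.43 and −0.38, and its halothane 1 MAC values −1.51, 0.57 and 0.57. Hars2, the mitochondrial histidyl-tRNA synthetase, was among the smallest p of the 12-array fit (−1.30, adjusted p = 0.0798) and missed the threshold in the 11-array fit (adjusted p = 0.0506). Its 2 probes gave −0.40 and −2.20.

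**Figure D1:**
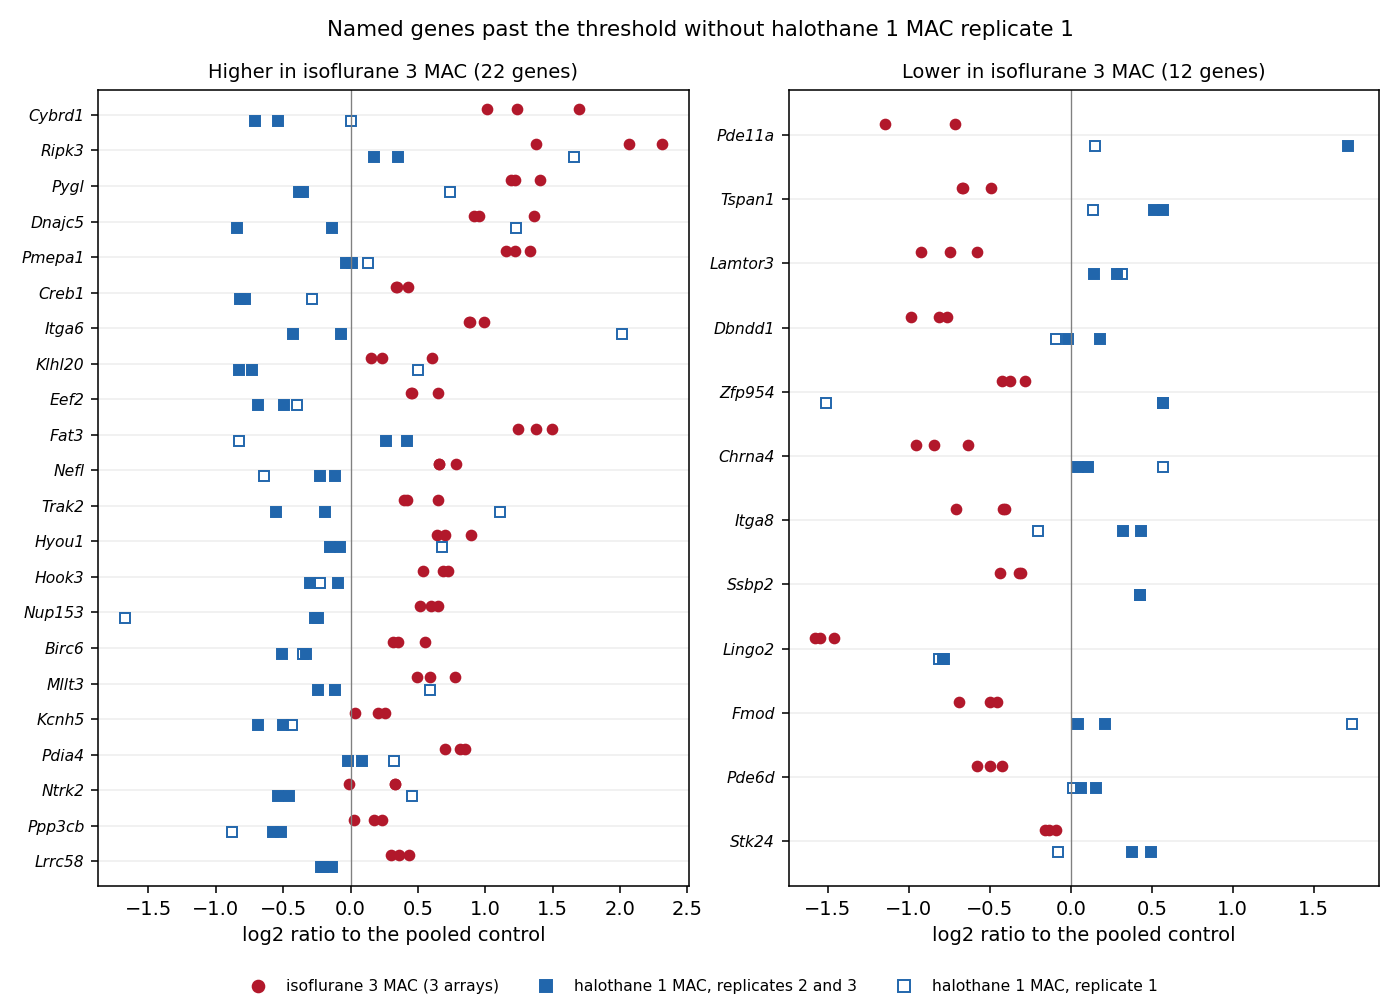
Log2 ratio to the pooled control (horizontal axis) of the 34 named genes that passed in the 11-array fit, one row per gene, with 22 higher genes on the left and 12 lower genes on the right. Red circles are the 3 isoflurane 3 MAC arrays, filled blue squares halothane 1 MAC replicates 2 and 3, and open squares its replicate 1, which lies on the side of isoflurane for genes such as Itga6, Dnajc5 and Zfp954.

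Of 16 members of the unfolded protein response tested, 2 (Pdia4 and Hyou1) passed in the 11-array fit, both higher, 0 passed in the 12-array fit, and the median difference was 0.49 in the 11-array fit and 0.62 in the 12-array fit, against 0.01 and −0.07 over all features. For 8 of the 16 the isoflurane values lay above all 3 halothane 1 MAC values, and for 0 below, where the shares over all features were 12.3% above and 13.3% below. Against replicates 2 and 3 alone the counts were 11 and 0 (23.1% and 21.3% over all features).

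Pdia4, a protein disulfide isomerase of the endoplasmic reticulum, read 0.70, 0.81 and 0.85 with isoflurane, against 0.32, −0.02 and 0.09 with halothane 1 MAC. Its difference was 0.75 ± 0.11 (1.69-fold; adjusted p = 0.0313) in the 11-array fit and 0.66 ± 0.14 (adjusted p = 0.097) in the 12-array fit. Hyou1, a large chaperone of the same compartment, read 0.64, 0.89 and 0.70, against 0.68, −0.15 and −0.08. Replicate 1 fell within the isoflurane values of Hyou1, and the difference was 0.86 ± 0.13 (adjusted p = 0.0328) without it and 0.59 ± 0.21 (adjusted p = 0.203) with it.

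Hsp90b1, the chaperone GRP94, read 0.09, 0.40 and 0.81, against −1.92, −0.84 and −0.41 with halothane 1 MAC, and did not pass (1.06, adjusted p = 0.0563, in the 11-array fit and 1.49, adjusted p = 0.097, in the 12-array fit). Creld2, a secreted stress protein, read 1.39, 1.19 and 1.36, against −2.06, 0.47 and 0.61 (0.77, adjusted p = 0.0636, in the 11-array fit and 1.64, adjusted p = 0.183, in the 12-array fit). Dnajc3, a co-chaperone that inhibits the kinase PERK, gave 1.03 (adjusted p = 0.0705) in the 11-array fit and 1.23 (adjusted p = 0.097) in the 12-array fit, and Hspa5, the chaperone BiP, gave 0.57 (adjusted p = 0.0814) and 0.97 (adjusted p = 0.148), both named after their values were seen. For Hsp90b1, Creld2, Dnajc3 and Hspa5 the isoflurane values lay above all 3 halothane values. In the fit of 5 arrays alone 4 members were called higher, namely Pdia4, Hyou1, Creld2 and Dnajc3.

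The promoters of these genes are shown because most members of the list differed in the same direction and a known element can be searched for. The ER stress response element was searched as CCAAT and CCACG with any 9 bases between them, on both strands, in the 250 bases before each gene's start in RefSeq (build GRCr8). It was found in 7 of the 16 promoters (43.8%), those of Calr, Canx, Creld2, Derl3, Dnajc3, Hsp90b1 and Hspa5, against 22 of 33469 promoters (0.0657%). The list was put together as genes of this response, so its share describes the choice of members and not an effect of isoflurane. Pdia4 and Hyou1, the members that passed, held no match in these letters, and no other spacing or arrangement of CCAAT and CCACG was searched. The 150 bases before the start of 6 genes follow in the direction of transcription, with the element in capitals. They lie at chr7:23012294-23012443 (minus strand) for Hsp90b1, chr7:121789234-121789383 (plus) for Creld2, chr15:102432517-102432666 (plus) for Dnajc3, chr3:38452866-38453015 (plus) for Hspa5, chr4:78153192-78153341 (minus) for Pdia4 and chr8:53602732-53602881 (plus) for Hyou1.
Hsp90b1: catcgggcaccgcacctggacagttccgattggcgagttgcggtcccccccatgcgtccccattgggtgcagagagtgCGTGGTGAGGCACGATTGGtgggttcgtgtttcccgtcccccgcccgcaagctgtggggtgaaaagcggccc
Creld2: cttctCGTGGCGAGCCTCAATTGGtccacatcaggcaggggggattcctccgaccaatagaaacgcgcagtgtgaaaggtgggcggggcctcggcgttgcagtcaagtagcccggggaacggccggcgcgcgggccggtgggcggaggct
Dnajc3: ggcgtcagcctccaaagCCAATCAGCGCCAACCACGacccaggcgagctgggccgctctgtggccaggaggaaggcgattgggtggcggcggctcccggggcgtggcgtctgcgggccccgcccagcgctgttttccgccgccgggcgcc
Hspa5: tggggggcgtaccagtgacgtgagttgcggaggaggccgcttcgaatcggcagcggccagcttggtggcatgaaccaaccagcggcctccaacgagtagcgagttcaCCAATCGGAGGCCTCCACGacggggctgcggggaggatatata
Pdia4: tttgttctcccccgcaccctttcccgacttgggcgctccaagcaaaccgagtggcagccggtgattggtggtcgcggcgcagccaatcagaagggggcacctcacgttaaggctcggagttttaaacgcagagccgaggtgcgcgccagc
Hyou1: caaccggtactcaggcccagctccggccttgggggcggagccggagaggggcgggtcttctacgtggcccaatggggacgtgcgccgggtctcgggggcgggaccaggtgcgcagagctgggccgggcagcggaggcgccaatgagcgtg
Creld2, with a match, and Pdia4, without one, both lay apart from all 3 halothane 1 MAC values. A match describes these letters alone, and no match says only that they are not in this window. None of the other 5 motifs searched in these promoters (sterol, antioxidant, amino acid, AP-1 and metal elements) overlapped the capitals of these genes.

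**Figure D2:**
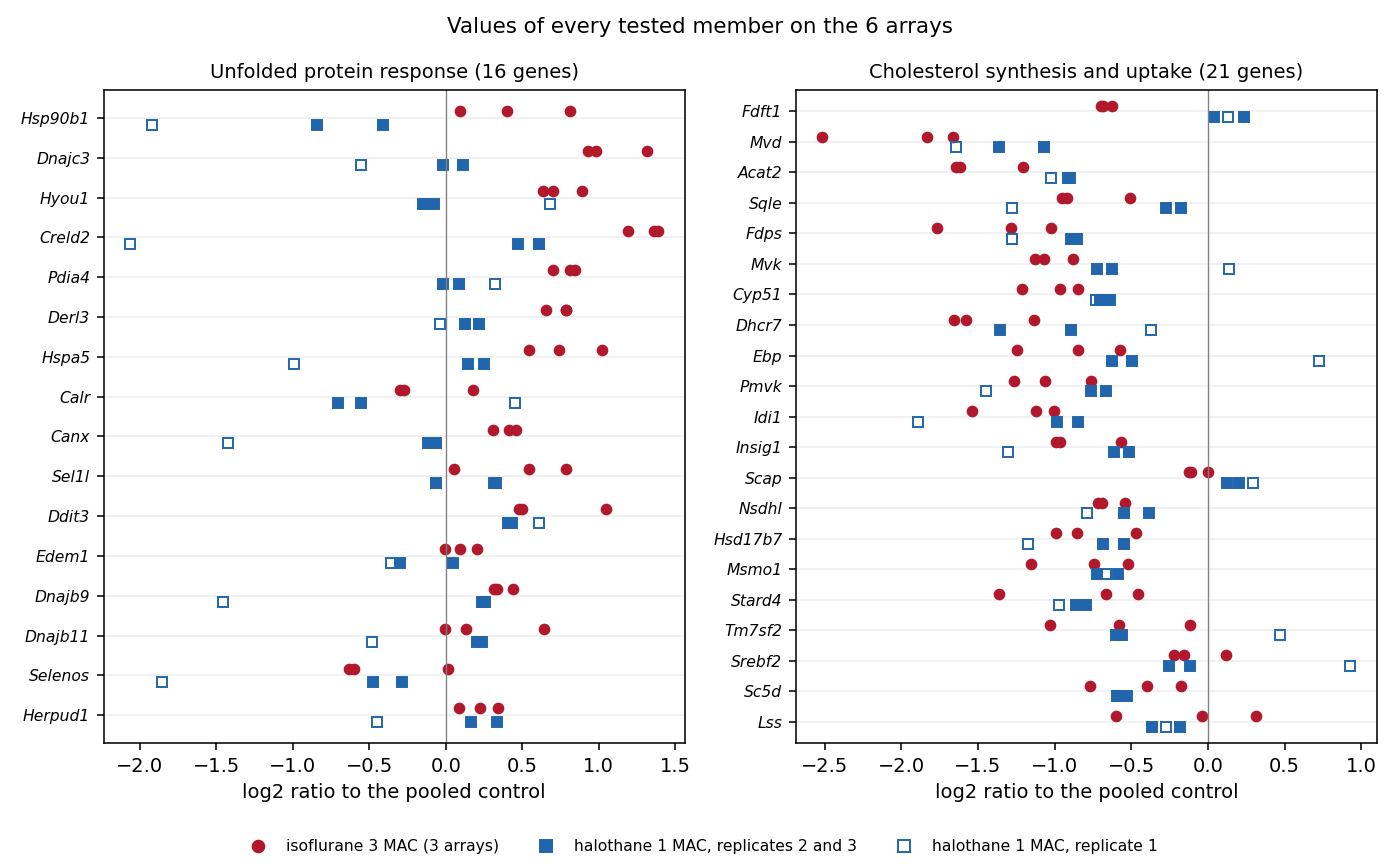
Log2 ratio to the pooled control of the 16 tested unfolded protein response genes (left) and the 21 tested cholesterol genes (right), ordered by the 11-array difference. Symbols are red circles for the 3 isoflurane 3 MAC arrays, filled squares for halothane 1 MAC replicates 2 and 3 and open squares for replicate 1. Isoflurane values lie above all 3 halothane values for 8 of 16 genes on the left and below all 3 for 6 of 21 on the right.

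Targets of ATF4 and genes of amino acid supply were tested as 23 members. Of these 0 passed in either fit, the median was 0.19 in the 11-array fit and 0.28 in the 12-array fit, and 8 lay above all 3 halothane 1 MAC values and 0 below (12.3% and 13.3% over all features). In the fit of 5 arrays alone Slc7a1 and Slc7a11 were called higher. Ddit4, an inhibitor of mTORC1 induced by stress, read −0.15, 0.42 and −0.08 with isoflurane, against −0.81, −0.92 and −0.97 with halothane 1 MAC (1.01 ± 0.18, adjusted p = 0.0506, in the 11-array fit and 0.96, adjusted p = 0.0887, in the 12-array fit). Sesn2, a stress-induced sensor of leucine, read 1.08, 1.58 and 0.98, against −0.22, 0.07 and 0.03 (1.16 ± 0.37, adjusted p = 0.137, in the 11-array fit and 1.25, adjusted p = 0.128, in the 12-array fit). Control values of Sesn2 spread widely, at 0.11, −1.10 and 0.41, and the model pools that spread. Slc7a1, the cationic amino acid transporter, gave 0.64 (12-array 0.70), and Nupr1, a small stress-induced chromatin protein, gave −0.47 (12-array −0.23) with 3 isoflurane values below replicates 2 and 3 but not below replicate 1.

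The amino acid response element, searched as TGATGNAA on both strands, stood in 5 of 22 promoters of this list (22.7%), those of Chac1, Fgf21, Nupr1, Slc7a1 and Trib3, against 1139 of 33469 (3.4%). Here too the share describes the choice of members, since the list was put together from ATF4 targets and amino acid supply genes. Slc7a1 and Nupr1 are printed because both hold the element while their differences had opposite signs. The regions are chr12:11664338-11664487 (plus strand) for Slc7a1 and chr1:190645902-190646051 (minus) for Nupr1, with the element in capitals.
Slc7a1: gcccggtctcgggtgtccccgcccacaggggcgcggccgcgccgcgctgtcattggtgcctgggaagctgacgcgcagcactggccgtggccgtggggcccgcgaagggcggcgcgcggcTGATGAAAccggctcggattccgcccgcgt
Nupr1: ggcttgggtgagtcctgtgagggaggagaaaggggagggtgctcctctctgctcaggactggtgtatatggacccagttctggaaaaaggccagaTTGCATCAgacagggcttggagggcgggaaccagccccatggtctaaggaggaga
Values of Slc7a1 were 0.52, 0.66 and 0.64 with isoflurane, against −0.21, −0.04 and −0.02 with halothane 1 MAC, and those of Nupr1 0.07, 0.21 and 0.09, against −0.13, 0.60 and 0.58.

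NRF2 and oxidative stress genes had 13 of 28 fully measured members above all 3 halothane 1 MAC values and 1 below (12.3% and 13.3% over all features), with a median of 0.15 in the 11-array fit and 0.27 in the 12-array fit over 29 members and 0 passed. Gclm, the regulatory subunit of the enzyme that limits glutathione synthesis, read 0.44, 0.83 and 0.43 with isoflurane, against 0.22, −0.18 and −0.08 (0.69 ± 0.17, adjusted p = 0.0743, in the 11-array fit and 0.58, adjusted p = 0.172, in the 12-array fit). Nqo1, a quinone reductase, read 1.36, 2.15 and 1.498, against 1.32, 0.71 and 0.50 (1.06 ± 0.27, adjusted p = 0.0838, in the 11-array fit and 0.82, adjusted p = 0.197, in the 12-array fit). Both groups of Nqo1 stood above the pool, isoflurane further. In the fit of 5 arrays alone 3 members were called higher, and these were chosen for naming after their values were seen. Hmox1, heme oxygenase, read 1.22, 1.74 and 1.34 with isoflurane, against −0.11, −0.05 and 0.28 with halothane 1 MAC. Osgin1, an oxidative stress-induced growth inhibitor, read 0.80, 0.90 and 0.99, against −0.54, 0.14 and −0.25. Slc7a11, the cystine transporter, read 1.17, 1.37 and 1.25, against 0.31, 0.38 and 0.50. The groups did not overlap, while the 11-array fit gave adjusted p = 0.312, 0.511 and 0.39 with SE of 0.66, 0.72 and 0.48, and the 12-array fit adjusted p = 0.242, 0.352 and 0.294. The controls of Hmox1 read 0.08, −2.21 and 0.82, and that spread enters the 11-array fit and not the fit of 5 arrays.

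Of 11 genes for metallothioneins and zinc and copper handling 0 passed (median 0.21 in the 11-array fit and 0.24 in the 12-array fit). From all 3 halothane 1 MAC values 0 lay apart (12.3% above and 13.3% below over all features). Against replicates 2 and 3 alone 4 lay above and 0 below (23.1% and 21.3% over all features). Mt1, a metallothionein that buffers zinc and copper, read 1.51, 1.69 and 1.67 with isoflurane, against 1.82, 0.68 and 0.80 with halothane 1 MAC. Replicate 1 was the highest of the 6 values of Mt1. Mt1 was called higher in the fit of 5 arrays alone. The difference was 0.88 ± 0.36 (adjusted p = 0.216) without replicate 1 and 0.52 ± 0.38 (adjusted p = 0.448) with it.

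Of 21 cholesterol genes 0 passed in either fit, with a median of −0.31 in the 11-array fit and −0.28 in the 12-array fit, and 6 lay below all 3 halothane 1 MAC values and 0 above (13.3% and 12.3% over all features). Fdft1 was called lower in the fit of 5 arrays alone. Fdft1, squalene synthase, read −0.63, −0.68 and −0.69, against 0.13, 0.04 and 0.24 (−0.81 ± 0.20, adjusted p = 0.0743, in the 11-array fit and −0.81, adjusted p = 0.107, in the 12-array fit). Mvd, a decarboxylase of the mevalonate pathway, read −1.83, −2.51 and −1.66, against −1.64, −1.36 and −1.07. For Mvd the halothane 1 MAC values were themselves well below the pool, and the difference of −0.79 ± 0.38 did not pass (adjusted p = 0.29; −0.65, adjusted p = 0.327, in the 12-array fit). Sqle, squalene epoxidase, gave −0.57 (12-array −0.22) and Scap, the escort protein of the sterol-sensing machinery, −0.24 (12-array −0.28). The sterol response element TCACNCCAC was in 0 of 17 promoters of the list and in 326 of all 33469 (0.974%).

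Receptors and channels, the direct targets of anaesthetics, gave scattered calls. Among 11 nicotinic receptor subunits Chrna4 passed in the 11-array fit and was lower, and the median of the list was −0.06 in that fit and −0.03 in the 12-array fit. Of 15 GABA-A and glycine receptor genes 0 passed and the median was −0.01 in the 11-array fit and 0.02 in the 12-array fit. Gabra4, a GABA-A subunit, read 0.38, 0.84 and 0.39 with isoflurane, against 0.01, 0.11 and −0.07 (0.51, adjusted p = 0.138, in the 11-array fit and 0.52, adjusted p = 0.173, in the 12-array fit), and Gphn, which anchors these receptors, gave 0.34 (adjusted p = 0.238, 12-array 0.44).

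Of 19 glutamate receptor genes 0 passed in either fit, while the fit of 5 arrays alone called Grin2a higher and Grik1 lower. Grin2a, an NMDA receptor subunit, read 1.34, 1.18 and 0.91 with isoflurane, against 0.90, −0.59 and −0.06, for a difference of 1.47 ± 0.28 (2.77-fold; adjusted p = 0.055) in the 11-array fit and 1.06 ± 0.35 (adjusted p = 0.184) in the 12-array fit. Grik1, a kainate receptor subunit, read −1.20, −1.17 and −1.15, against 0.31, −0.15 and −0.42 (−0.89, adjusted p = 0.201, in the 11-array fit and −1.09, adjusted p = 0.161, in the 12-array fit), and Grin3a, another NMDA subunit, gave −0.78 (adjusted p = 0.193, 12-array −0.86). The list held differences of both signs, with 2 members above and 3 below all halothane 1 MAC values (12.3% and 13.3% over all features) and medians of 0.07 in the 11-array fit and −0.17 in the 12-array fit.

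Among 8 two-pore potassium channel genes, which include channels opened by volatile anaesthetics, 0 passed and the median was −0.11 in the 11-array fit and −0.0066 in the 12-array fit. Of 36 other potassium, sodium, calcium and HCN channel genes 0 passed, with medians of 0.13 in the 11-array fit and −0.09 in the 12-array fit. Scn8a, a sodium channel of the axon initial segment, read 0.05, 0.02 and 0.13 with isoflurane, against −0.19, −0.46 and −0.42 (0.51, adjusted p = 0.0563, in the 11-array fit and 0.43, adjusted p = 0.164, in the 12-array fit). Kcnj3, a potassium channel opened by G proteins, gave 1.09 (adjusted p = 0.105, 12-array 0.92). Kcnh5, a voltage-gated potassium channel outside the list, passed in the 11-array fit at 0.75 (adjusted p = 0.0409, 12-array 0.70), with 0.20, 0.03 and 0.26 against −0.44, −0.50 and −0.68.

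Of 25 monoamine and muscarinic receptor genes 0 passed (median −0.06 in the 11-array fit and −0.21 in the 12-array fit). Drd2, the D2 dopamine receptor, read −1.32, −1.36 and −1.28 with isoflurane, against −0.41, −0.15 and −0.20 (−1.14 ± 0.26, adjusted p = 0.0663, in the 11-array fit and −1.07, adjusted p = 0.104, in the 12-array fit). The isoflurane values of Drd2 lay close together, while the controls read 0.23, 0.00 and −0.88. Adra1d, an adrenergic receptor, gave 0.62 (adjusted p = 0.168, 12-array 0.75). Drd2 was called lower in the fit of 5 arrays alone.

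Synaptic vesicle genes had a median of 0.05 in the 11-array fit and 0.03 in the 12-array fit with 0 of 32 passed, and Syn2 was called higher in the fit of 5 arrays alone. Syn2, a synapsin that tethers vesicles, gave 0.83 (adjusted p = 0.0563, 12-array 0.42) and Syt11, a synaptotagmin, 0.60 (adjusted p = 0.0707, 12-array 0.66). Syt11 read 1.49, 1.34 and 1.33 with isoflurane, against 0.60, 0.80 and 0.77 with halothane 1 MAC. Of 23 tubulin, neurofilament and axon growth genes Nefl passed in the 11-array fit, and the medians were 0.05 in that fit and −0.04 in the 12-array fit. The fit of 5 arrays alone called Nefl and Nefm higher and Stmn4 lower. Nefm, the medium neurofilament subunit, read 0.28, 0.56 and 0.15, against −1.51, −0.55 and −0.78 (1.00, adjusted p = 0.0838, in the 11-array fit and 1.28, adjusted p = 0.103, in the 12-array fit), and Stmn4, a stathmin that regulates microtubules, read −0.80, −0.95 and −0.88, against 0.42, −0.15 and −0.01 (−0.80, adjusted p = 0.12, in the 11-array fit and −0.96, adjusted p = 0.118, in the 12-array fit).

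Of 25 genes for neurotrophins, neuregulin and their receptors Ntrk2, the receptor of BDNF, passed in the 11-array fit and was higher (0.72 ± 0.13, adjusted p = 0.0496). Its values were −0.01, 0.33 and 0.33 with isoflurane, against 0.46, −0.54 and −0.46 with halothane 1 MAC, and the difference was 0.40 (adjusted p = 0.37) in the 12-array fit. The 3 probes of Ntrk2 disagreed, at 1.55, 0.61 and −0.01 in the 11-array fit. The median of the list was 0.05 in the 11-array fit and 0.16 in the 12-array fit, and the fit of 5 arrays alone called Sort1 and Nrg1 higher and Ret lower. Sort1, a sorting receptor for proneurotrophins, gave 0.79 (adjusted p = 0.0636, 12-array 0.74), Nrg1, the growth factor neuregulin, 0.73 (adjusted p = 0.0793, 12-array 0.52) and Ret, the receptor of GDNF family ligands, −0.97 (adjusted p = 0.0726, 12-array −0.55).

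Of 13 markers of inhibitory neurons 0 passed in either fit, with a median of −0.36 in the 11-array fit and −0.47 in the 12-array fit, and 6 lay below and 1 above all 3 halothane 1 MAC values (13.3% and 12.3% over all features). The fit of 5 arrays alone called Dlx2 lower. Gad1, the enzyme that makes GABA, read −1.04, −1.36 and −0.97, against −0.55, −0.47 and −0.35 (−0.72 ± 0.27, adjusted p = 0.195, in the 11-array fit and −0.67, adjusted p = 0.219, in the 12-array fit). Dlx2, a transcription factor of interneuron development, read −0.30, −0.33 and −0.21, against 1.70, 0.36 and 0.43 (−0.67, adjusted p = 0.0963, in the 11-array fit and −1.11, adjusted p = 0.142, in the 12-array fit). Sst, the peptide somatostatin, gave −0.78 (12-array −0.75) and Slc32a1, the vesicular GABA transporter, −0.57 (12-array −0.43). In each fit 3 of the 13 had a difference above 0. The mean of the list was −0.27, −0.45 and −0.25 on the isoflurane arrays, against 0.18, 0.01 and −0.098 with halothane 1 MAC. Halothane 3 MAC stood at −0.20, −0.27 and −0.17, overlapping isoflurane, and the controls at 0.01, −0.09 and −0.15. Fewer inhibitory neurons and less of their RNA per cell cannot be told apart in such cultures.

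Peptide genes were mixed, with 7 of 21 fully measured neuropeptide and granin genes below and 3 above all 3 halothane 1 MAC values (13.3% and 12.3% over all features). The fit of 5 arrays alone called Penk and Scg5 lower, and 0 of 22 passed in the other fits (median −0.02 in the 11-array fit and 0.03 in the 12-array fit). Penk, the enkephalin precursor, read −0.81, −0.98 and −0.75 with isoflurane, against 0.46, 0.26 and 0.31 (−1.13 ± 0.38, adjusted p = 0.149, in the 11-array fit and −1.19, adjusted p = 0.141, in the 12-array fit). Control 3 read −1.10 for Penk, against 0.20 and 0.63 on controls 1 and 2. Scg5, a chaperone of prohormone convertase 2, gave −0.78 (adjusted p = 0.0969, 12-array −0.73) and Pdyn, the dynorphin precursor, −0.39 (12-array −0.64).

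Other cell markers were compared by the mean of each list on each array. Astrocyte markers averaged 0.01 to 0.18 on the isoflurane arrays and 0.13 to 0.18 on the halothane 1 MAC arrays, beside −0.93 to −0.82 with halothane 3 MAC. Control 2 stood at −0.88, within the halothane 3 MAC range, while controls 1 and 3 stood at 0.26 and 0.15. Among them Slc1a3, a glutamate transporter, gave an 11-array difference of 0.67 (12-array 0.66) and Sparc, a matrix protein, −1.04 (12-array −1.23), and neither passed, though the fit of 5 arrays alone called Slc1a3 higher. Pan-neuronal markers, which include Nefl, averaged −0.25 to −0.02 on the isoflurane arrays and −0.36 to −0.13 on the halothane 1 MAC arrays. Oligodendrocyte markers read 0.52 on isoflurane array 2, against −0.07 and −0.03 on isoflurane arrays 1 and 3. Microglia markers did not agree among the isoflurane arrays, at 0.54, −0.55 and 0.09, against 0.39, −0.24 and −0.22 with halothane 1 MAC. Since every value is a ratio to a pool, presence or absence of a cell type cannot be read from them.

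Inflammatory genes had a median of 0.41 in the 11-array fit and 0.16 in the 12-array fit over 28 members, 0 passed, and 4 of 27 fully measured members lay above and 1 below all 3 halothane 1 MAC values. The share above was near the 12.3% over all features. Ccl2, a chemokine that draws monocytes, read 1.94, 3.01 and 1.85 with isoflurane, against −0.99, −0.03 and 0.29 (2.13 ± 0.53, 4.39-fold, adjusted p = 0.0793 in the 11-array fit; 2.51 ± 0.51, adjusted p = 0.097 in the 12-array fit). Cxcl1, a chemokine that draws neutrophils, gave 0.69 (adjusted p = 0.0695, 12-array 0.41). Microglia markers differed among the isoflurane arrays, where Trem2, a microglial receptor, read 1.22, −0.62 and 1.13 on isoflurane arrays 1 to 3, and Ptprc, the leukocyte antigen CD45, 1.20, −0.74 and 1.01. Ccl2 was highest on array 2, where these 2 markers were lowest. The part of microglia in the values of Ccl2 or in the list's median was not tested.

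Matrix genes had 9 of 26 members above and 2 below all 3 halothane 1 MAC values (12.3% and 13.3% over all features), a median of 0.20 in the 11-array fit and 0.14 in the 12-array fit, and 0 passed. The fit of 5 arrays alone called Bgn, Ccn2 and the matricellular gene Ccn1 higher and Dcn lower, and Ccn1 was named after its values were seen. Spp1, the secreted phosphoprotein osteopontin, read 1.81, 3.36 and 1.84, against 0.58, 0.48 and 0.91 (1.64 ± 0.38, 3.12-fold, adjusted p = 0.0704, in the 11-array fit and 1.68, adjusted p = 0.097, in the 12-array fit). Dcn, the proteoglycan decorin, read −1.24, −1.62 and −0.77, against −0.36, 0.71 and 0.77 (−1.95 ± 0.40, adjusted p = 0.0585, in the 11-array fit and −1.58, adjusted p = 0.125, in the 12-array fit). Bgn, the related proteoglycan biglycan, went the other way at 0.90 (adjusted p = 0.0646, 12-array 0.64), as did Ccn2, a matricellular growth factor, at 0.81 (adjusted p = 0.0698, 12-array 0.92).

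**Figure D3:**
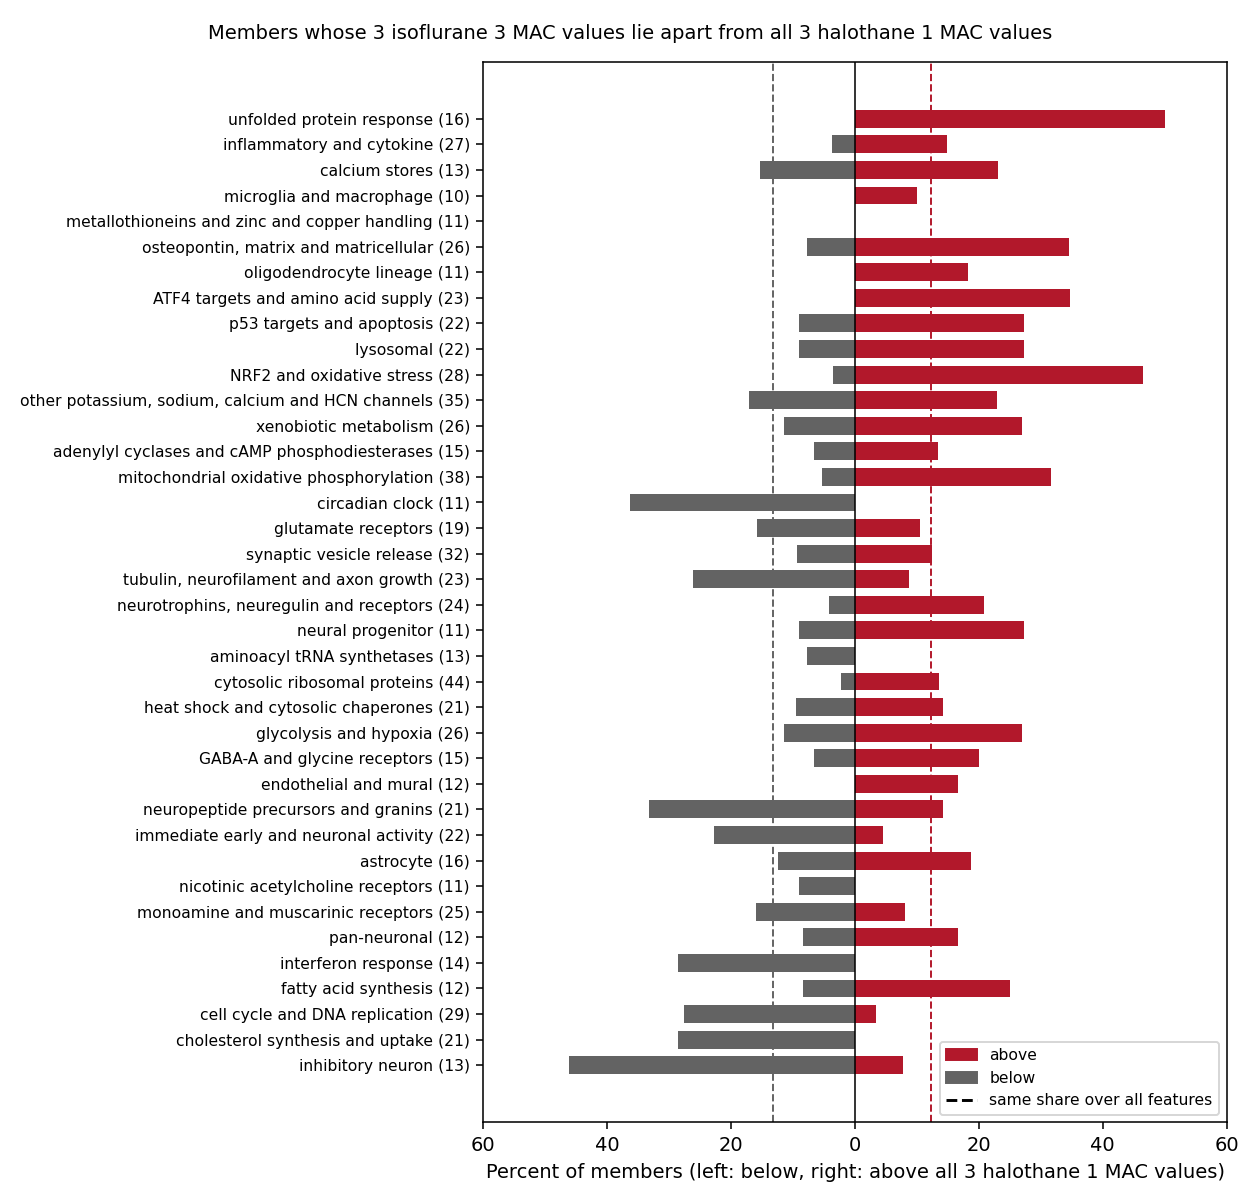
Percent of the fully measured members of each list (number in parentheses, lists of at least 10) whose 3 isoflurane 3 MAC values lay above (red, right) or below (grey, left) all 3 halothane 1 MAC values, with lists ordered by their 11-array median. Dashed lines mark the same shares over all features, 12.3% above and 13.3% below. The unfolded protein response and NRF2 lists extend furthest right, and the inhibitory neuron list furthest left.

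Halothane at 3 MAC and the controls show where the pair stood in the series. The comparisons share arrays, so their counts are not independent. In the 11-array fit isoflurane 3 MAC differed from control in 386 features and from halothane 3 MAC in 2047, halothane 3 MAC differed from halothane 1 MAC in 69, and halothane 1 MAC differed from control in 0 (1298 before adjustment, at p under 0.05). In the 12-array fit the same counts were 12, 580, 0 and 0. Without control 2 (chosen after the data were seen) they were 270, 2994, 1637 and 2 when halothane 1 MAC replicate 1 was also left out, and 5, 1038, 698 and 0 when it was kept. Of the genes above, Pmepa1 read −0.03, 0.02 and −0.11 with halothane 3 MAC and −0.19, −0.41 and 0.35 in controls, all below the isoflurane values. Pdia4 likewise read −0.02, −0.15 and 0.06 with halothane 3 MAC and 0.04, −0.04 and 0.15 in controls. Spp1 stood at −0.44, −0.54 and −0.31 with halothane 3 MAC, below both anaesthetic groups compared here. Hars2 read −0.99, −1.04 and −0.96 with isoflurane and −1.01, −1.09 and −1.16 with halothane 3 MAC, against 0.29, 0.32 and 0.28 with halothane 1 MAC and −0.0033, −0.98 and −0.89 in controls. For this gene controls 2 and 3 were about as low as both 3 MAC groups, while control 1 lay closer to halothane 1 MAC. The source of this split among the controls was not tested.

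**Figure D4:**
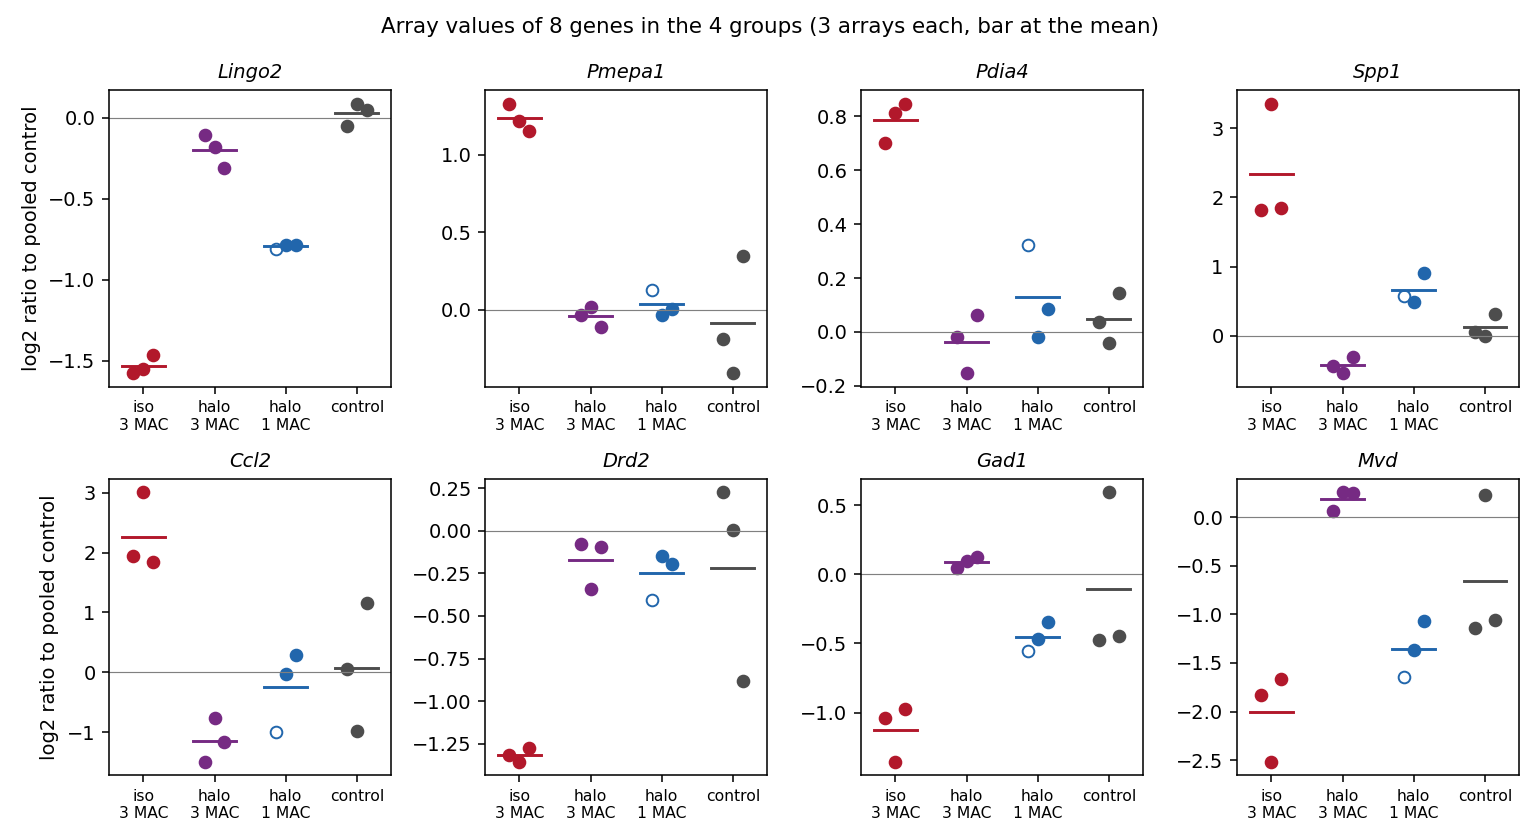
Log2 ratio to the pooled control of 8 genes on every array, with groups ordered isoflurane 3 MAC, halothane 3 MAC, halothane 1 MAC and control, points for arrays, the open circle for halothane 1 MAC replicate 1 and bars at the mean of 3. Pmepa1 and Pdia4 were highest on the 3 isoflurane arrays, Lingo2 was lowest with isoflurane and next lowest with halothane 1 MAC, and Gad1 and Mvd had 1 control array at or above most halothane 3 MAC values.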

How the data were processed

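RNA from 12 cultures was hybridised to 2-colour arrays against a pool of control RNA. The authors deposited 1 processed value per spot and array, taken as a log10 ratio of sample to pool, an inference set out above. Partek is named per the submitters' processing notes; no label or header used here records the normalisation. Values were multiplied by 3.3219 to give log2 ratios, exact 0 (5.96%) was treated as missing, and 471 spots at the limit of 2 on the log10 scale on at least 10 arrays were left out. Probes of a gene with values on all 12 arrays were averaged. Where a gene had no such probe, its probe with most values was used. Features needed 2 values per group among the 12 arrays; the same features were tested with 11, where 163 had 1 value on halothane 1 MAC replicates 2 and 3. Differences came from limma 3.58.1 in R 4.3.3 (lmFit and eBayes over all 4 groups), with 12 arrays and without halothane 1 MAC replicate 1. Benjamini-Hochberg adjustment ran over 16546 features at 0.05. Both fits were run on simulated data with independent noise, in which 200 features were changed by 1 log2 unit. The 12-array fit recovered 41.5% of them and the 11-array fit 66%, with 5 and 4 false calls. P-values measure only the spread between these arrays, whose number limits the precision. Same-numbered arrays of the compared groups did not deviate together (r = 0.0133, −0.0264 and 0.102). Named genes were the called genes, at most 12 per direction with the largest differences, up to 5 per direction of smallest p where few passed, and the 4 members of smallest p per list, and further called genes were added after their values were seen. Of 21575 spots, 12750 carried 1 gene symbol. The members and the 43 lists were chosen with earlier results of these data known.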

Additional observations from a re-analysis of the deposited data

How the results depend on the processing

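The count of features past the threshold depended on single arrays and on settings. With all 12 arrays it was 0. Leaving out 1 array gave 0 to 74 features and 0 to 34 named genes: 74 without halothane 1 MAC replicate 1, 52 (27 named) without control 3, 11 (4 named) without control 1, and 0 without any other array. The 6 arrays alone gave 3 features (2 named), the 5 arrays without replicate 1 314 (143), exact zeros kept 22 (10), arrays centred on their medians 8 (3), array weights 3020 (1610), and variances without moderation 5 (3). Settings for the 11-array fit were chosen after seeing the data. There, from 74 features and 34 named genes, leaving out a further array gave 0 to 628 features and 0 to 310 named genes; it was 0 without isoflurane 1, isoflurane 3 or halothane 1 MAC replicate 2, 2 without halothane 1 MAC replicate 3, 3 and 4 without halothane 3 MAC replicates 1 and 3, 17 without isoflurane 2, and 303, 524 and 628 without controls 1, 2 and 3. The 2 groups alone gave 314 (143 named), quantile normalisation 46, arrays scaled to one median absolute deviation 45 (22), every spot on its own 118 (67), features with values on all 12 arrays 115, array weights 2033 (1079), variances without moderation 21 (11), and a log2 difference of at least 1 as well 32 (12). With the replicate block the counts were 0 in both fits (0 named), with smallest adjusted p of 0.123 with 12 arrays and 0.0537 with 11, so all 74 calls were lost; the labels do not settle whether the number marks a rat. In the 12-array fit, leaving out 1 array moved Itga6 between −0.0532 (without halothane 1 MAC replicate 2) and 1.17 (without replicate 1), and Zfp954 between −0.93 (without replicate 1) and 0.11 (without replicate 2 or replicate 3). The medians of the unfolded protein response (0.46 to 0.69) and cholesterol lists (−0.36 to −0.14) kept their sign under the 16 settings of the 12-array fit. Several other list medians did not. That of the tubulin, neurofilament and axon growth list changed sign under 6 settings, and that of GABA-A and glycine receptors under 5. Those of glutamate receptors and of inflammatory genes (−0.02 to 0.41) changed sign under 3 settings each. The cause of these changes was not tested.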

Other observations

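Of 29 cell cycle and DNA replication genes 0 passed between isoflurane 3 MAC and halothane 1 MAC, and 8 lay below and 1 above all 3 halothane values (13.3% and 12.3% over all features), with a median of −0.14 in the 11-array fit and −0.33 in the 12-array fit. The mean of the list was −0.50, −0.05 and −0.49 on the isoflurane arrays, against 0.10, −0.05 and −0.16 on the halothane 1 MAC arrays, so the groups overlapped through isoflurane array 2. Controls 1 to 3 stood at −0.35, 0.43 and −0.52, and halothane 3 MAC at 0.52 to 0.55. An untreated plate, control 3, was thus as low as the isoflurane arrays. Mcm5, a subunit of the replicative helicase, read −1.18, −0.65 and −1.25 with isoflurane, against −0.21, 0.42 and 0.12 with halothane 1 MAC (−1.29, adjusted p = 0.103, in the 11-array limma fit and −1.13, adjusted p = 0.155, in the 12-array fit, and called lower in the fit of 5 arrays alone), and control 3 read −0.75. Its partner Mcm7 read −0.52, −0.60 and −0.71, against 0.47, −0.04 and 0.17 (−0.68, adjusted p = 0.12, in the 11-array fit and −0.81, adjusted p = 0.122, in the 12-array fit).

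Cyp4b1, a cytochrome P450 of the xenobiotic list, read 2.01, 3.17 and 1.98 with isoflurane, against 1.21, 0.73 and 0.89 with halothane 1 MAC (1.58 ± 0.34, SE, 3 arrays against 2; adjusted p = 0.0636, in the 11-array fit and 1.45, adjusted p = 0.097, in the 12-array fit). Cyp1b1, another P450, gave 1.11 (adjusted p = 0.0704, 12-array 0.97) and was called higher in the fit of 5 arrays alone. Of 38 oxidative phosphorylation genes 12 lay above and 2 below all 3 halothane 1 MAC values (12.3% and 13.3% over all features), with a median of 0.11 in the 11-array fit and 0.25 in the 12-array fit and 0 passed.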
